A study of Mus musculus with 6 samples.

Results

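C1q-high macrophages of the untreated mouse spleen were taken as the cells with at least 10 transcripts of C1qa, C1qb and C1qc together in 1 tissue section. They numbered 12060 of 108338 cells, a share of 11.1% with an exact binomial (Clopper-Pearson) 95% interval of 10.9% to 11.3%. They were described against the 42747 cells with no C1q transcript (39.5%), called C1q-zero cells here, and the 53531 cells with 1 to 9 C1q transcripts (49.4%) belonged to neither group. Since the cells were chosen by these C1q counts, their C1q levels are a description and not a result.

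C1q is the recognition part of the classical complement pathway, built from the A, B and C chains that C1qa, C1qb and C1qc encode, and tissue macrophages are its main source. Red pulp macrophages of the spleen engulf old erythrocytes and return their iron to the blood through ferroportin, the product of Slc40a1. Their development depends on Spi-C, a transcription factor encoded by Spic, and they carry the adhesion molecule VCAM1. Marginal zone macrophages, which sit at the border of the lymphoid white pulp and carry Marco or Siglec1, are separate cells.

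The study mapped erythroblastic islands, which are macrophages with erythroid cells around them, in blood-forming tissues by Xenium, an in situ assay that counts single transcripts of a panel of 477 genes inside cell outlines. The untreated spleen came from an adult wild-type C57BL/6 mouse, aged 2 or 3 months according to different places in the study. Its labels name no altered allele and no agent, and whether the mouse received the saline vehicle given to control mice was not stated. The spleen gave 1 formalin-fixed, paraffin-embedded section of 5 µm. Set beside it, with the same panel, were 1 section each of wild-type E14.5 fetal liver, wild-type P8 bone marrow and the spleen of an adult wild-type mouse injected intraperitoneally with phenylhydrazine (PHZ), which lyses erythrocytes, at 40 mg per kg, 2 times a day for 2 days. With 1 section per condition, cells are not replicates, so no comparison has a p value, and all intervals cover counting error only. The outlines hold whatever lies in the section thickness over an expanded nucleus, so a cell outline can hold transcripts of its neighbors. Only 1 cell name was shared by both spleens, and 1 to 6 names by each pair of sections.

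The section held 10351683 transcripts in cells, a median of 84 per cell. C1q-high cells had a median of 150 transcripts (quartiles 115 and 198) and of 134 outside C1q, and C1q-zero cells had 70 (50 to 93). Their outlines had a median area of 52.0 µm² against 31.2 µm², and their nuclei 24.0 µm² against 21.0 µm². Per µm² of outline the median was 2.93 against 2.27 transcripts. Gene levels below are therefore counts per 1000000 transcripts of all genes except C1q (CPM), and values per cell are given for some genes and groups. Since C1q-high cells held a mean of 147 such transcripts against 75.7, a ratio per cell is 1.95 times the ratio in CPM, and any ratio between 0.513 and 1 in CPM lies above 1 per cell. Counts on negative control probes came to 0.0129 per C1q-high cell and 0.00360 per C1q-zero cell. Per 1000000 transcripts of all genes, C1q included, they were 78.6 and 47.6, and negative control codewords were at 118 and 54.1. Background thus also differed between the groups on this scale, by more than 2 times for codewords, which limits the reading of genes at such low levels.

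RefSeq promoter windows were found for 3 of the 6 marker genes of these cells, and they are shown because C1q chose the cells and Spic split them. Each is the 250 bases before the transcript start in GRCm38.p6, 5′ to 3′ on the minus strand. Capitals mark GAGGAA or its reverse complement TTCCTC, a purine-rich core that Ets-family factors such as PU.1 and Spi-C can bind.
C1qb, chr4:136886201-136886450, minus strand: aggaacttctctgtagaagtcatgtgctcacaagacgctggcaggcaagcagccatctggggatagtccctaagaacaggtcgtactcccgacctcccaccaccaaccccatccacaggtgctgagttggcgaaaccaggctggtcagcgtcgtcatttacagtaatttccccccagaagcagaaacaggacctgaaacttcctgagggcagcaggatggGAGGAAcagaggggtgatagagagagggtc
C1qc, chr4:136892915-136893164, minus strand: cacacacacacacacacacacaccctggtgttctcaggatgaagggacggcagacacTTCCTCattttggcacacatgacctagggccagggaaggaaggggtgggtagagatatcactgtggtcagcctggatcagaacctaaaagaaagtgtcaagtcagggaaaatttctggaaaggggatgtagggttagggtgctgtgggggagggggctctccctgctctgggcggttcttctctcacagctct
Spic, chr10:88683024-88683273, minus strand: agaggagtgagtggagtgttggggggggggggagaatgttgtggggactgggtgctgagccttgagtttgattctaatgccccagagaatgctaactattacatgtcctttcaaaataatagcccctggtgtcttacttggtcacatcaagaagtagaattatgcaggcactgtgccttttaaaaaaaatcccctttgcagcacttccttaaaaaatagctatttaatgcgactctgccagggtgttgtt
The C1qb window held 1 match on the printed strand, 30 bases before the start, and the C1qc window 1 match on the other strand, 193 bases before it. The Spic window held none. The same letters were found in 7639 of 32851 promoter windows of this length (23.3%), so these matches are a description, and binding was not tested. C1qa, C1qb and C1qc lie side by side on chromosome 4, with gene bodies at 136895916 to 136898844, 136880126 to 136886200 and 136889801 to 136892936. The C1qc window belongs to a transcript that starts just inside the gene body. Slc40a1 lies on chromosome 1 at 45908070 to 45926532 and Vcam1 on chromosome 3 at 116110020 to 116129688.

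The chains of C1q were counted together in almost every member. All 3 were present in 11877 of the 12060 cells (98.5%, 98.2% to 98.7%) and exactly 2 in the other 183 (1.52%). The rule asks for at least 10 transcripts of these same genes together, which favors finding all 3, so this share is no finding. C1qb gave 6.69 ± 3.53 transcripts per cell (mean ± SD over 12060 cells of 1 section), C1qc 5.49 ± 3.17 and C1qa 4.85 ± 2.74. Their shares of all C1q transcripts in these cells were 39.3%, 32.2% and 28.5%, but the panel's probe sets differ between genes, so this is no order of RNA levels. The sum had a median of 14 (12 to 20) and reached 79. The members held 53.8% of all C1q transcripts that lay in cells, and the rest lay in cells below the threshold.

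The markers of red pulp macrophages were present in most C1q-high cells. The C1q rule did not use them, but cells and gene lists were chosen with earlier results of these data known. Their presence is thus a description. Slc40a1 averaged 8.86 ± 5.53 transcripts per C1q-high cell and 0.453 ± 0.971 per C1q-zero cell. Vcam1 averaged 4.92 ± 3.45 against 0.305 ± 0.696, and Spic 3.76 ± 3.51 against 0.269 ± 0.612. At least 1 Slc40a1 transcript was seen in 97.0% of C1q-high cells (96.7% to 97.3%), at least 1 Vcam1 transcript in 95.8% and at least 1 Spic transcript in 87.0%. In C1q-zero cells with at least 3 transcripts of Cd3e, Cd3d, Cd4 and Cd8a, T cells by their genes and a class that should lack these markers, the shares were 20.7%, 19.0% and 17.3%. Those cells had a median of 79 transcripts, so every cell was also thinned at random to 50 transcripts. The shares were then 90.5% against 13.9% for Slc40a1, 78.1% against 12.3% for Vcam1 and 64.2% against 11.1% for Spic, with 112 C1q-high and 1647 T cell-marker cells left out as too shallow. Each marker was thus present in most members, over a background in T cell outlines.

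The threshold of 10 cut through a gradient and not a gap. The 2008 cells with 9 C1q transcripts had 44224 CPM of Slc40a1, 23413 of Vcam1 and 14743 of Spic. The 1670 cells with exactly 10 had 47260, 25415 and 16388 CPM. From C1q-zero cells through 6 classes of rising C1q counts, Slc40a1 went from 5976 to 74386 CPM, Vcam1 from 4027 to 42822 and Spic from 3553 to 39242. Mrc1, the mannose receptor CD206, went from 689 to 27032 CPM over the same classes. Each of these genes was higher in every class than in the one before. Cd3e, a chain of the T cell receptor complex, went the other way, from 13590 to 1396 CPM, and so did Cxcl13, the chemokine that draws B cells into follicles, from 8140 to 588. The median number of transcripts per cell grew over these classes from 70 to 223 and the outline area from 31.2 to 66.9 µm², which moved with all these levels, and their part was not tested.

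**Figure D1:**
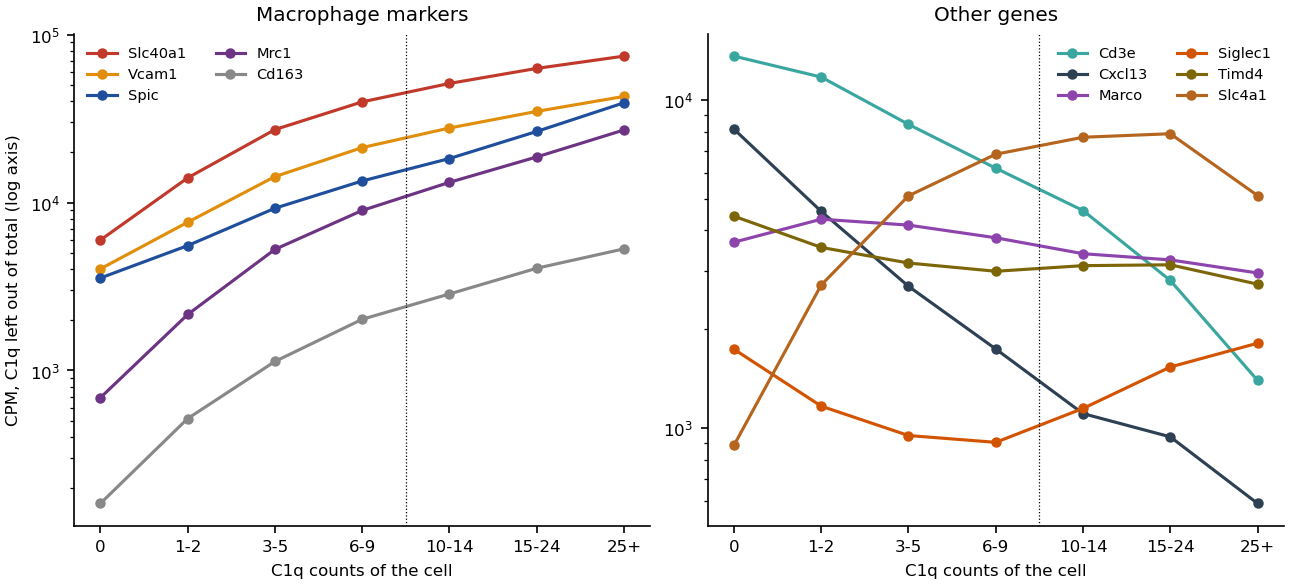
Levels in CPM on a log axis (C1q left out of the total) against the C1q count of the cell, from 0 to 25 or more, for macrophage markers on the left and other genes on the right; each point pools all cells of a class. Slc40a1, Vcam1, Spic, Mrc1 and Cd163 climb at each step, Cd3e and Cxcl13 descend, and Marco stays between 2967 and 4326 CPM.

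Of the 474 panel genes outside C1q, 430 had at least 100 counts over both groups. At least 2 times the CPM of C1q-zero cells was reached in C1q-high cells by 52 of them (12.1%), and 182 (42.3%) had at most 0.5 times. The median ratio over the 430 genes was 0.599, a log2 of −0.74, and the 6 red pulp genes described next took 149908 of each 1000000 counts in C1q-high cells against 19850 in C1q-zero cells. Counted per cell, 117 genes were at least 2 times as high, 32 at most 0.5 times, and the median was 1.17 (log2 0.22). Per µm² the median was 0.680 (log2 −0.56), with 60 and 143 genes. Gene groups are therefore read against the median of all genes on the same scale.

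The red pulp and iron recycling group stood highest. All 6 of its genes were at least 2 times as high in C1q-high cells, with a median ratio of 7.73 against 0.599 over all genes. Cd163, the receptor that takes up hemoglobin bound to haptoglobin, had 3784 against 162 CPM, a ratio of 23.4 (21.4 to 25.7). Slc40a1 had a ratio of 10.1 (9.90 to 10.2), Vcam1 8.29 (8.13 to 8.45) and Spic 7.17 (7.03 to 7.32). Trf, which encodes the iron carrier transferrin, followed with 6.08 (5.94 to 6.21), and Adgre1, the F4/80 antigen, with 2.66 (2.59 to 2.73).

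Scavenger and engulfment genes were divided. Of 12, 5 were at least 2 times as high and 1, Clec4f, at most 0.5 times (median 1.72), against 12.1% and 42.3% of all genes (median 0.599). Mrc1 had the highest ratio of all genes with at least 500 counts, 17973 against 689 CPM or 26.1 (25.01 to 27.3). Cd5l, a secreted scavenger protein of tissue macrophages, followed Cd163 with 20.9 (19.9 to 21.9). Cd68, a lysosomal membrane protein, had a ratio of 4.72 (4.61 to 4.83) and Ms4a7 one of 3.63 (3.45 to 3.81). Maf, a transcription factor of resident macrophages, was at 1.95 (1.92 to 1.97). The nucleases Dnase2a and Dnase1l3 lay at 1.11 each. Timd4, a receptor for phosphatidylserine on dying cells, was lower in CPM, with 3051 against 4419 or a ratio of 0.691 (0.669 to 0.712), but higher per cell, with 0.450 against 0.335 transcripts. Folr2, at 2.50 over the whole section, had a ratio of 1.24 once the Car3- and Retn-bearing cells (described below) and the cells near them were left out.

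Secreted growth and signaling factors reached at least 2 times the level in 3 of 6 genes and at most 0.5 times in none (median 2.13). Of all genes 12.1% and 42.3% did (median 0.599). Against C1q-zero cells within 10 µm of a C1q-high cell, 2 of the 6 were that high (median 1.41), and 15.8% of all genes (median 0.656). Igf1, the insulin-like growth factor, had 8458 against 1215 CPM, a ratio of 6.96 (6.72 to 7.21). Il18, an inflammasome cytokine, had 3.39 (3.30 to 3.49), and Selenop, which carries selenium, 2.27 (2.24 to 2.29). Vegfa was at 1.13 and Pdgfa at 0.972, or 1.89 per cell.

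Genes shared by many phagocytes were mixed. Of 15, 3 were at least 2 times as high, namely Mpeg1 at 2.57, Lst1 at 2.51 and Aif1 at 2.48, and 4 at most 0.5 times, namely Rac2 at 0.300, Ncf4 at 0.304, Cybb at 0.447 and Slamf7 at 0.454. The median of the group was 0.821 in CPM and 1.60 per cell, against 0.599 and 1.17 over all genes, of which 12.1% were higher and 42.3% lower by these folds. Rac2, Ncf4 and Cybb encode parts of the NADPH oxidase, which makes superoxide.

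Of 4 other complement genes none was at least 2 times and 1 at most 0.5 times as high, and the median was 0.767 in CPM and 1.49 per cell, above that of all genes. C3, the central component, was at 0.623 (0.608 to 0.638) in CPM and 1.21 per cell. Chemokines and their receptors had 1 gene of 19 at least 2 times as high, Ccl8 at 6.23 (4.55 to 8.66) from 100 against 16.1 CPM, and 7 at most 0.5 times (median 0.691 in CPM, 1.34 per cell), against 12.1% and 42.3% of all genes. Of the 178 Ccl8 counts, 106 lay in the 356 C1q-high cells at or near Car3- and Retn-bearing cells (1429 CPM). Another 37 lay in the 866 in T cell areas (326 CPM), both groups being described below. The 10081 members in T cell-poor surroundings had 21 counts or 14.2 CPM. Without the cells at or near Car3- and Retn-bearing cells in both classes the Ccl8 ratio was 2.82 (1.93 to 4.15). Genes of interferon response and innate sensing had 1 of 11 at least 2 times as high and 7 at most 0.5 times, with a median of 0.460 in CPM and 0.895 per cell. The high one, Rsad2, had a ratio of 3.33, which was 1.71 between cells of both groups without any erythroid marker count.

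**Figure D2:**
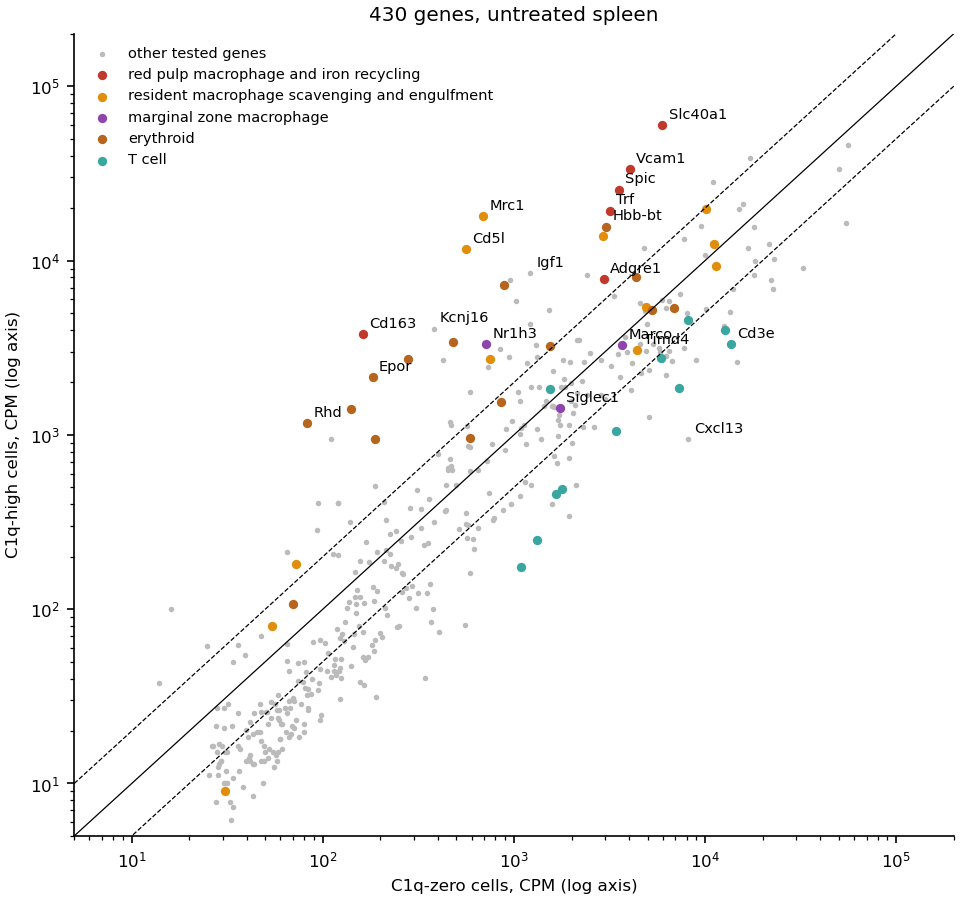
CPM of each of the 430 genes in C1q-high cells (vertical) against C1q-zero cells (horizontal), both on log axes, with lines for equal levels and for 2-fold differences; each point is 1 gene, colored by gene group. Red pulp genes lie above the upper line, from Adgre1 at 2.66 to Cd163 at 23.4 times the C1q-zero level, and all T cell genes but Lag3 lie below the line of equality.

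At the low end, Cxcl13 had the lowest ratio among genes with at least 500 counts, 0.116 (0.110 to 0.121), followed by Sostdc1 at 0.118, Dsc3 at 0.148, Pdcd1 at 0.161 and 2610528A11Rik at 0.167. Ackr3 was at 0.176, Cxcr5, the receptor for Cxcl13, at 0.177, Insm1 at 0.183, Foxp3 at 0.188 and Wnt2 at 0.223. This order changed against C1q-zero cells that lay near C1q-high cells. Against those within 10 µm of a C1q-high cell Cxcl13 was at 0.272, Wnt2 at 0.121 and Ackr3 at 0.124. Against those with at least 10 C1q-high cells within 40 µm they were at 0.335, 0.0821 and 0.0787. Of 11 T cell genes, 9 were at most 0.5 times as high (median 0.275), against 42.3% of all genes (median 0.599). Per cell it was 4 of 11 (median 0.535), against 32 of 430 genes (median 1.17). The T cell gate held 22.03% of C1q-high cells (21.3% to 22.8%) and 30.2% of C1q-zero cells. This gate also counts Cd4. At or near Car3- and Retn-bearing cells (described below), Cd4 was 9.82 (6.28 to 16.2) times as high in C1q-high as in C1q-zero cells. Cd3e was at 1.84 and Cd3d at 1.39 there. How far Cd4 of C1q-high cells themselves adds to this gate, and to the T cell-marker shares below, was not tested.

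Erythroid genes were high in C1q-high outlines. Of 15, 9 were at least 2 times and none at most 0.5 times as high (median 5.07), against 12.1% and 42.3% of all genes (median 0.599). Rhd, of the Rh blood group, had a ratio of 14.1 (12.4 to 16.1), Epor, the erythropoietin receptor, 11.8 (10.8 to 12.8), and Klf1, the erythroid transcription factor, 10.04 (9.08 to 11.1). Epor is not a gene of erythroid cells alone, since the paper cites reports of this receptor in island macrophages. By flow cytometry of bone marrow it found no significant difference in the receptor between C1q+ and C1q-negative macrophages. Hemgn was at 9.72, Slc4a1, the anion exchanger of the erythrocyte membrane, at 8.17 and the globin gene Hbb-bt at 5.14. At least 3 transcripts of the erythroid markers, Slc4a1, Klf1, Gata1, Hemgn and Rhd among them, were found in 19.0% of C1q-high cells (18.3% to 19.7%) and 1.15% of C1q-zero cells. Without any of these transcripts were 7436 C1q-high cells (61.7%) and 39120 C1q-zero cells (91.5%). Between those, Epor had a ratio of 8.32 and Hbb-bt 2.47, while Mrc1 (27.9), Slc40a1 (10.4) and Spic (7.37) were as high as before. Erythroid-marker cells were also more frequent around C1q-high cells, as given below, and their part in these ratios was not tested.

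Markers of other cells are set here beside all genes, of which 12.1% were higher and 42.3% lower, with medians of 0.599 in CPM and 1.17 per cell. Of 14 neutrophil genes 4 were at least 2 times and 3 at most 0.5 times as high (median 0.994 in CPM, 1.94 per cell), and of 13 stromal genes 2 and 0 (median 1.07). Of 14 endothelial genes 4 were at most 0.5 times as high and none 2 times (median 0.631 in CPM, 1.23 per cell). NK cell genes had a median of 0.794 in CPM and 1.55 per cell, megakaryocyte and platelet genes 1.49 and monocyte genes 1.17. Among the last, Clec4a3, a C-type lectin, stood out with 8.17 (7.85 to 8.50). Kcnj16, a potassium channel gene, and Pcolce2, an enhancer of collagen processing, belonged to no list and had ratios of 10.7 (10.1 to 11.4) and 8.58 (7.65 to 9.65).

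Of the 3 genes in the marginal zone list, 1 was at least 2 times and none at most 0.5 times as high (median 0.885), against 12.1% and 42.3% of all genes (median 0.599). The high one was Nr1h3, which encodes the nuclear receptor LXRα, at 4.64 (4.42 to 4.87). The paper also reports Nr1h3 as higher in C1q+ than in other macrophages, so its level is not read as a marginal zone trait. That report is from single-cell data of E14.5 fetal liver, another tissue, method and reference group. It lists Timd4 and Dnase2a as higher too, and neither reached 2 times the level of all C1q-zero cells here (Timd4 0.691). The other 2 depended on which C1q-zero cells were used. Over the whole section, Marco had 3257 against 3681 CPM, a ratio of 0.885 (0.857 to 0.913), and Siglec1 0.817 (0.780 to 0.857). Per cell both were higher, with 0.480 against 0.279 Marco and 0.209 against 0.132 Siglec1 transcripts. Against the 4908 C1q-zero cells within 10 µm of a C1q-high cell, Siglec1 had a ratio of 4.13, Timd4 2.04 and Marco 1.33. Against the 9358 C1q-zero cells with at least 10 C1q-high cells within 40 µm, the ratios were 4.75, 2.90 and 1.86. At least 2 Marco transcripts were found in 8.79% of C1q-high cells and in 5.83% of C1q-zero cells, and of all 7859 cells with that many, 13.5% were C1q-high, against 11.1% of all cells.

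The same local references set C1q-high cells against cells that lay among them. Against C1q-zero cells within 10 µm, 50 of 316 genes (15.8%) were at least 2 times and 106 (33.5%) at most 0.5 times as high, with a median of 0.656 over all genes. Mrc1 had a ratio of 11.7, Spic 6.001, Vcam1 5.51 and Slc40a1 5.31, and none of the 6 red pulp genes was under 2 times. For erythroid genes the median ratio was 2.23 against these cells, with 9 of 15 at least 2 times as high, and Slc4a1 was at 3.09. T cell genes had a median of 0.361, endothelial genes had a median of 0.418, lower than against all C1q-zero cells, and NK cell genes had a median of 0.445.

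C1q-high cells lay close to one another. The median distance to the nearest other C1q-high cell was 7.18 µm (6.11 to 8.80), and from C1q-zero cells to the nearest C1q-high cell it was 22.4 µm. Within 40 µm, 25.5 ± 13.0 other C1q-high cells (mean ± SD over cells of 1 section) lay around a C1q-high cell and 6.15 ± 7.65 around a C1q-zero cell. Erythroid-marker cells averaged 15.9 ± 16.7 around C1q-high cells, 2.11 ± 5.90 around C1q-zero cells and 6.58 around any cell. For T cell-marker cells the means were 25.5 ± 21.2, 44.9 ± 33.5 and 38.6. Cells of any kind averaged 112 around C1q-high and 140 around C1q-zero cells. As a mean share of these, T cell-marker cells made up 21.6% and 31.1%, and erythroid-marker cells 15.8% and 1.84%. Neutrophil-marker cells averaged 6.66 against 2.64, endothelial-marker cells 13.3 against 8.203 and NK-marker cells 6.57 against 3.60. Since 19.0% of C1q-high cells were erythroid-marker and 22.03% T cell-marker cells themselves, these counts include C1q-high outlines.

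**Figure D3:**
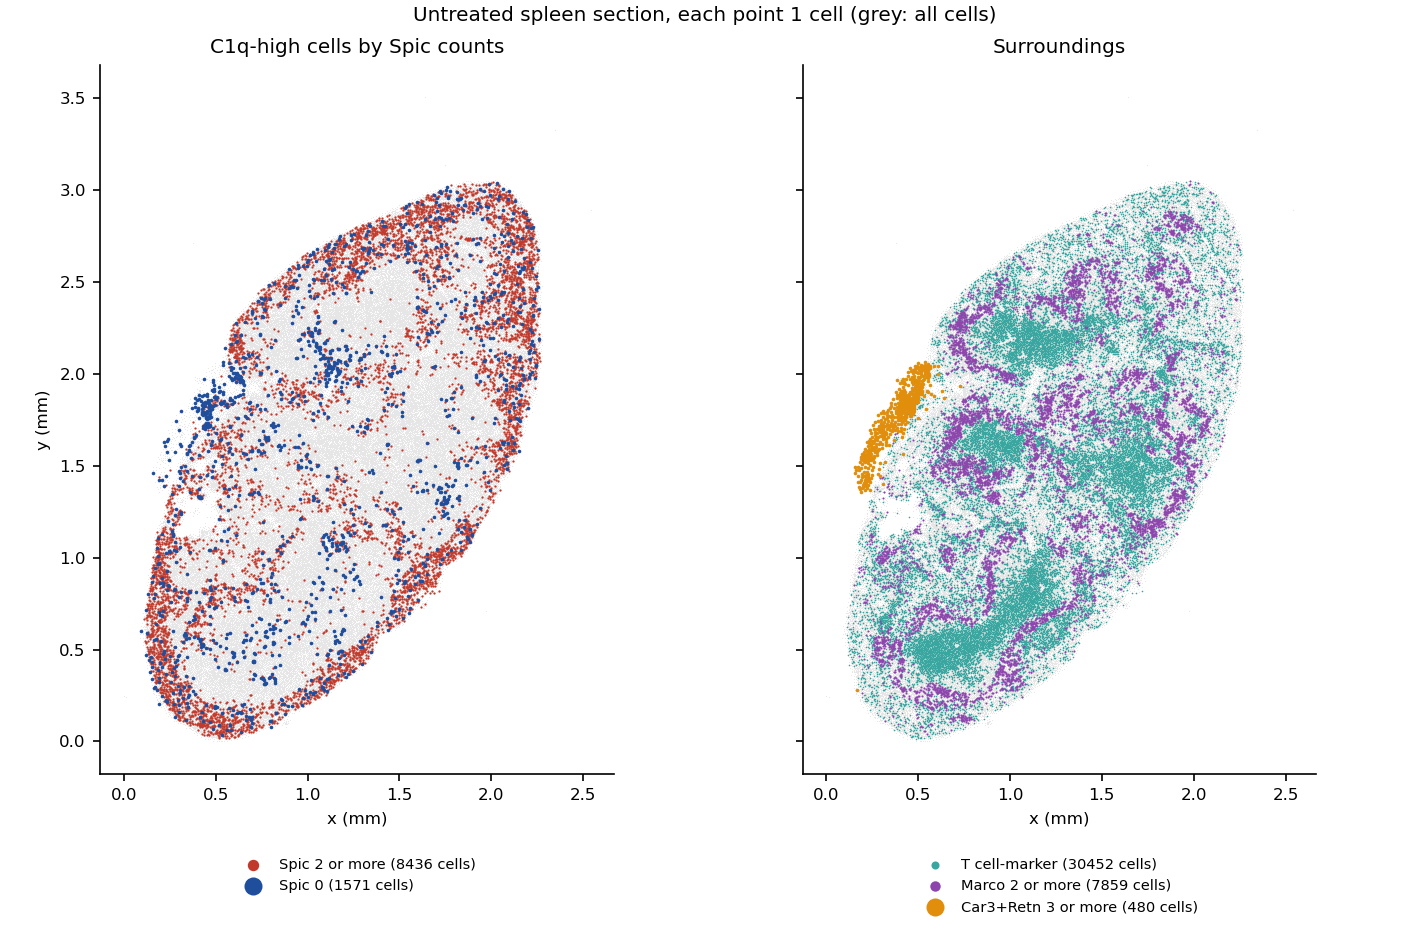
Map of the section in mm, each point 1 cell and grey for all cells: on the left C1q-high cells with at least 2 (8436, red) or 0 (1571, blue) Spic transcripts, on the right T cell-marker cells, cells with at least 2 Marco transcripts and cells with at least 3 transcripts of Car3 and Retn. C1q-high cells with Spic lie mostly between the T cell areas. Of those without it, 61.1% lie in T cell-poor surroundings, 20.3% in T cell areas and 10.6% at or near Car3- and Retn-bearing cells. Of those with it, these shares are 89.5%, 3.57% and 1.28%.

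The share of C1q-high cells varied with the T cells around them. Where under 20% of the cells within 40 µm were T cell-marker cells, 14.7% of 46169 cells were C1q-high (14.4% to 15.1%). At 20% to 30% it was 12.0%, at 30% to 40% 6.29%, at 40% to 60% 3.94% and at 60% or more 4.25% (3.87% to 4.65%). C1q-high cells were thus present in T cell areas, but at under 5% of the cells. In 21 squares of 500 µm with enough cells, the share ran from 3.15% to 35.0% with a median of 10.8%. In all of these squares Slc40a1, Spic, Vcam1 and Mrc1 were at least 4.16, 4.70, 4.24 and 4.66 times as high in C1q-high as in C1q-zero cells.

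Spic split the C1q-high cells. At least 2 transcripts were found in 8436 of them (70.0%, 69.1% to 70.8%), exactly 1 in 2053 (17.0%) and none in 1571 (13.0%, 12.4% to 13.6%). In C1q-zero cells of the surroundings with fewest T cells, 6.07% had at least 2. Cells with at least 2, called Spic-high here, had a median of 160 transcripts in all, 16 of C1q and an area of 53.8 µm². Cells with none, called Spic-zero, had 127, 12 and 47.5 µm². Since Spic chose both groups, it was left out of the total together with C1q.

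The split followed position. Spic-high cells made up 76.2% of the C1q-high cells in the surroundings with under 20% T cell-marker cells, then 72.4%, 62.5% and 39.8%, and 30.1% (25.9% to 34.5%) at 60% or more. The share of Spic-zero cells went from 8.79% to 40.5% (36.0% to 45.2%) over the same classes. The median depth of C1q-high cells went from 152 to 132 transcripts along with it, and the share of C1q-zero cells with at least 2 Spic transcripts from 6.07% to 1.68%. Around a Spic-high cell 22.6 ± 15.8 T cell-marker cells and 17.7 ± 16.9 erythroid-marker cells lay within 40 µm, and around a Spic-zero cell 35.9 ± 32.6 and 9.23 ± 14.3. Spic-high cells had 27.1 C1q-high cells around them and Spic-zero cells 19.9. The nearest cell with at least 2 Marco transcripts was at a median of 26.6 µm from Spic-high and 33.6 µm from Spic-zero cells.

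**Figure D4:**
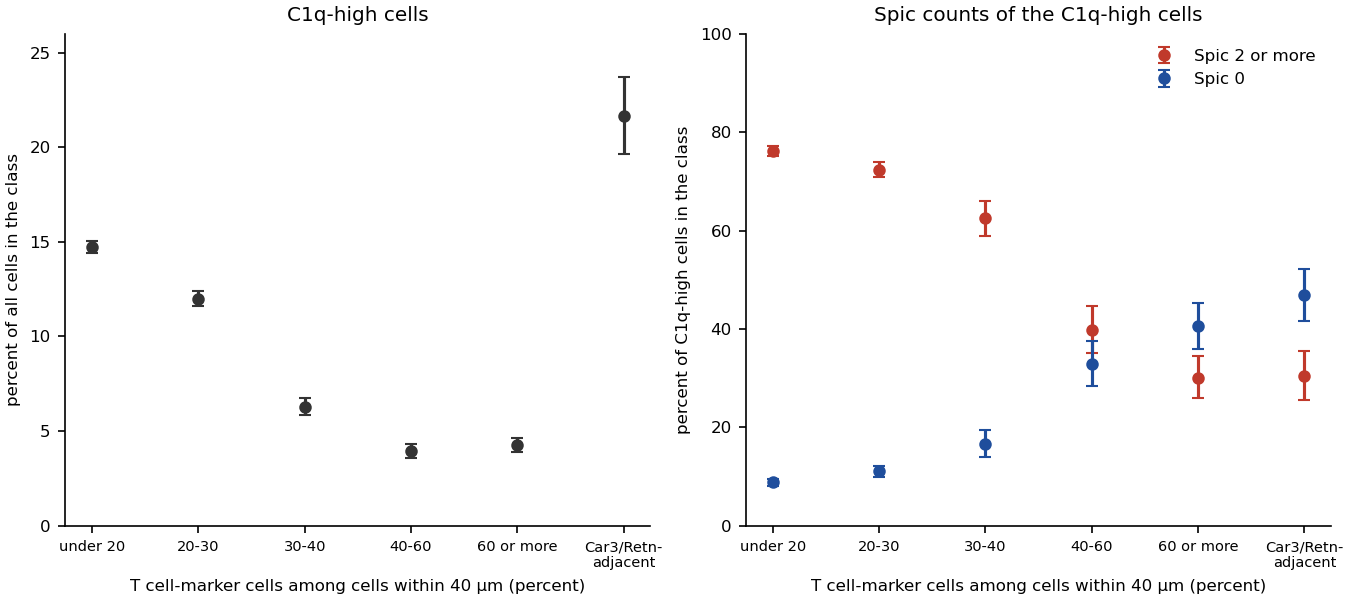
Percent of all cells that were C1q-high (left) and percent of C1q-high cells with at least 2 or with 0 Spic transcripts (right), by the percent of T cell-marker cells within 40 µm. Cells at or near Car3- and Retn-bearing cells form a class of their own. Bars are exact binomial 95% intervals. The C1q-high share goes from 14.7% to 4.25% and the Spic-high share from 76.2% to 30.1%.

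Between Spic-high and Spic-zero C1q-high cells, 280 genes had at least 100 counts. At least 1.5 times the CPM of Spic-zero cells was reached by 31 of them (11.1%), and 100 (35.7%) had at most 1/1.5 of it, with a median of 0.806 over all. Counted per cell, 42 and 78 genes passed and the median was 0.906. Red pulp genes without Spic passed in 4 of 5 cases, namely Cd163 at 2.15 (1.95 to 2.38), Adgre1 at 1.90 (1.78 to 2.03), Slc40a1 at 1.88 (1.83 to 1.92) and Vcam1 at 1.73 (1.68 to 1.79). Trf was at 1.095 (1.06 to 1.13). The highest ratio was that of Kcnj16 at 3.28 (2.93 to 3.68), followed by Il18 at 2.44 (2.27 to 2.62), Nr1h3 at 2.18 and Tlr4, the receptor for bacterial endotoxin, at 2.17. Mrc1 was at 2.06, Cd5l at 2.02, Maf at 1.69 and Igf1 at 1.67.

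Spic-zero cells also carried the red pulp markers. Slc40a1 averaged 4.86 ± 3.64 and Vcam1 2.90 ± 2.17 transcripts per Spic-zero cell, against 10.3 ± 5.60 and 5.66 ± 3.60 per Spic-high cell. At least 1 Slc40a1 transcript was present in 88.2% of Spic-zero cells, and in 75.3% after thinning to 50 transcripts. For Mrc1 the thinned shares were 34.8% of Spic-zero and 60.7% of Spic-high cells.

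Complement, chemokine, T cell and stromal genes were on the side of the Spic-zero cells. All 3 complement genes with enough counts had in Spic-high cells at most 1/1.5 of their level in Spic-zero cells, with C3 at 0.240 (0.228 to 0.252) and C5ar1 at 0.442. The same was true of 12 of 17 chemokine and receptor genes (median 0.589), 8 of 11 T cell genes (median 0.503) and 9 of 13 stromal genes (median 0.609), against 35.7% of all genes (median 0.806). Of 15 erythroid genes 5 were at least 1.5 times as high in Spic-high cells and none at most 1/1.5 (median 1.43), against 11.1% of all genes that were higher. Marco was at 1.47 (1.34 to 1.62), Siglec1 at 1.24 and Timd4 at 0.674 (0.626 to 0.726). Among the lowest genes were Car3 at 0.0423 (0.0383 to 0.0466), Retn at 0.0466 (0.0396 to 0.0546), Dpt at 0.108 and Mfap4 at 0.221.

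Part of this split moved with 2 locations, chosen here after the values were seen. Of the Spic-zero cells, 10.6% were a cell with at least 3 transcripts of Car3 and Retn or lay within 40 µm of one. Another 20.3% lay where at least 40% of the surrounding cells carried T cell markers. Of the Spic-high cells these were 1.28% and 3.57%. In the remaining surroundings with under 30% T cell-marker cells, 7554 Spic-high and 960 Spic-zero cells were left. There 14 of 255 genes (5.49%) were at least 1.5 times as high in Spic-high cells and 65 (25.5%) at most 1/1.5, with a median of 0.802. Kcnj16 kept a ratio of 2.25, Il18 2.13, Tlr4 2.04, Nr1h3 1.999, Cd163 1.81 and Mrc1 1.72, while Slc40a1 was at 1.45, Vcam1 at 1.46 and Cd5l at 1.44. Of 5 red pulp genes 2 passed there (median 1.46) and of 15 erythroid genes none (median 0.958). At most 1/1.5 was reached by 3 of 11 T cell genes (median 0.746), 8 of 12 chemokine and receptor genes (median 0.612) and 5 of 12 stromal genes (median 0.683). C3, at 0.240 in the full split, was at 0.459.

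**Figure D5:**
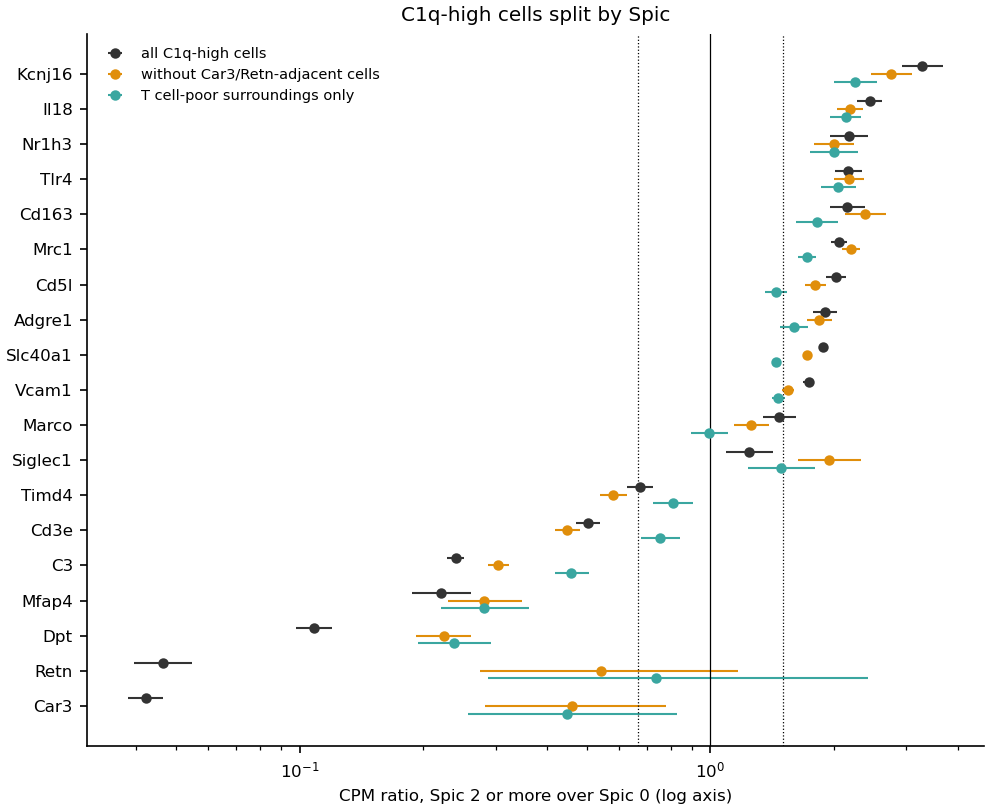
CPM ratio of Spic-high over Spic-zero C1q-high cells on a log axis for named genes, with 95% counting intervals. Values are for all C1q-high cells (black), without cells at or near Car3- and Retn-bearing cells (orange) and in T cell-poor surroundings only (green). Dotted lines mark 1.5-fold differences. Kcnj16, Il18, Tlr4 and Nr1h3 lie between 2.25 and 1.999 in T cell-poor surroundings, and Car3 and Retn move from 0.0423 and 0.0466 to 0.448 and 0.738.

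C1q-high cells inside T cell areas had another profile than those outside. The 866 cells with at least 40% T cell-marker cells around them were set against the 10081 with under 30%, and T cell genes, which defined the areas, are no finding. Of 277 genes, 60 (21.7%) had at least 2 times and 91 (32.9%) at most 0.5 times the CPM. C3 was 8.93 times as high (21546 against 2412 CPM), Cxcl16 6.43 times, Timd4 4.57 times, Dnase1l3 3.41 times and Ms4a7 2.74 times. Of 6 red pulp genes 5 were at most 0.5 times as high, Cd163 with a ratio of 0.142, Trf of 0.274, Adgre1 of 0.324, Slc40a1 of 0.382 and Spic of 0.428. Vcam1, at 0.698, did not pass that fold, and the median over all genes was 0.889. Mrc1 was at 0.127. At least 2 Timd4 transcripts were found in 30.1% of these cells (27.1% to 33.3%) and in 8.28% of all C1q-high cells, and at least 2 Mrc1 transcripts in 7.39% and 60.8%. Erythroid genes had a median ratio of 0.145, with 14 of 15 at most 0.5 times as high.

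C1q-zero cells of the same areas shared a part of that profile. Cxcl13, at 6.31 times the level of C1q-high cells outside, was at 0.743 against the 10873 C1q-zero cells of the same T cell areas, and Cxcl16 was at 1.40 against them. Against these same neighbors, Ms4a7 was 12.1 times as high, Slc40a1 11.5, Cd5l 9.69, Mrc1 8.93, Vcam1 8.07, Nr1h3 6.50, Cd68 6.14, Igf1 6.03, Spic 5.30, Timd4 5.27 and C3 2.76 times. Of 271 genes 38 (14%) were at least 2 times and 54 (19.9%) at most 0.5 times as high. By list, 5 of 6 red pulp genes were at least 2 times as high and none at most 0.5 times (median 5.81), with Adgre1 at 0.795, and of 9 scavenging and engulfment genes 6 and none (median 5.27). General phagocyte genes went both ways, with 5 of 15 higher and 2 lower (median 1.01), the lower ones being Ncf4 at 0.450 and Rac2 at 0.476. The median over all 271 genes was 0.801.

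The other location was small. Cells with at least 3 transcripts of Car3 and Retn, genes known from adipocytes, numbered 480, and 356 C1q-high cells were such a cell or lay within 40 µm of one. Cells near Car3- and Retn-bearing cells include those cells themselves throughout, and how many of the 356 they made up was not counted. The 356 held 3008 Car3 and 1088 Retn counts, against 119 and 61 in all other C1q-high cells. Of all 1646 cells there, 21.6% (19.7% to 23.7%) were C1q-high and 30.3% of those were Spic-high. Their outlines were wide, with a median of 77.8 µm² and 203.5 transcripts, of which 35.4% lay over the nucleus against 50.7% in all C1q-high cells. Set against the other C1q-high cells, 75 of 293 genes (25.6%) were at least 2 times and 68 (23.2%) at most 0.5 times as high, Car3 and Retn being no finding. Lum and Dpt, both of connective tissue, had ratios of 105 and 32.8, F13a1 9.29, C3 6.50 and the chemokine gene Ccl9 6.03. C1q-zero cells of the same places also carried Lum, Dpt and C3, over which C1q-high cells had ratios of 1.76, 1.703 and 0.708. Spic was at 0.242 and Slc40a1 at 0.491, while Cd163 (0.949) and Mrc1 (0.804) were close to the other members. Against the 247 C1q-zero cells of the same places, Ms4a7 was 21.3 (10.7 to 49.8) and Siglec1 17.0 (7.71 to 46.9) times as high. Both intervals are wide, from C1q-zero levels of 239 and 180 CPM. Mrc1 was 8.69 (6.64 to 11.6), Cd68 8.53 (6.52 to 11.4), Cd163 8.02 (4.77 to 14.5), Spic 6.09 and Slc40a1 5.30 times as high. Of 175 genes 56 (32.0%) were at least 2 times and 36 (20.6%) at most 0.5 times as high.

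By the same rule, C1q-high cells of the other sections on this panel held a smaller share of Spic-high cells. C1q-high cells made up 2.65% of the E14.5 fetal liver (3112 cells), 1.13% of the P8 bone marrow (592 cells) and 9.56% of the PHZ-treated spleen (9045 cells). Of these, 41.7% (40.0% to 43.5%), 32.6% (28.8% to 36.5%) and 40.0% (39.0% to 41.0%) were Spic-high, against 70.0% here. Their median depth was not lower, with 181.5, 184.5 and 173 transcripts against 150. In CPM, C1q-high cells of the untreated and the PHZ-treated spleen had 25487 and 10604 of Spic, 60068 and 43342 of Slc40a1, 33375 and 18132 of Vcam1, and 3784 and 590 of Cd163. Kcnj16 had 4070 and 483 CPM. Marco went the other way, with 3257 and 13892 CPM. The outlines of C1q-high cells had a median of 52.0 µm² in the untreated and 86.2 µm² in the PHZ-treated spleen. With 1 section each, treatment, animal and section cannot be told apart, and no difference between sections was tested.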

How the data were processed

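Sections of 5 µm were run on the Xenium Analyzer with 379 predesigned and 98 custom genes, and Xenium Onboard Analysis 1.7.1.0 decoded transcripts and outlined cells by expanding nuclei, per the file headers. The authors deposited whole-number counts of transcripts per cell and gene, with a quality score for each transcript; transcripts with a score of at least 20 were counted. The counts of the untreated spleen were rebuilt from the transcript table with a difference of 0. No cell was left out and doublets were not called. Counts were pooled per group and scaled to 1000000 counts outside C1q (also outside Spic in the split by Spic). Ratios carry exact conditional Poisson 95% intervals and shares exact binomial ones. Genes with at least 100 counts over both groups were compared. Genes were named as the 15 highest and 10 lowest ratios among genes with at least 500 counts, as the 8 highest and 5 lowest in the split by Spic, and from 16 gene lists; some of these are not reported here. Marker cells had at least 3 counts of their list. A count of 0 allows up to 3 counts. Alternatives changed thresholds, scale, radius and quality score. The cells and lists were chosen with earlier results of these data known. Fetal liver at E13.5 and bone marrow at 89 weeks, measured with another panel, were not used here. Python 3.11.15, numpy 2.4.6, scipy 1.17.1 and pandas 2.3.3 were used, and the code was tested on simulated data.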

Additional observations from a re-analysis of the deposited data

Results flagged for a closer look

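For 6 genes among those at either end of the comparison, C1q-high cells had at least 2 times the CPM of C1q-zero cells in 1 spleen and at most 0.5 times in the other. The ratio of C1q-high over C1q-zero cells was, without and with PHZ, 14.1 and 0.297 for Rhd, 11.8 and 0.444 for Epor, 10.04 and 0.415 for Klf1, and 9.72 and 0.331 for Hemgn. It was 8.17 and 0.374 for Slc4a1, and 0.116 and 2.87 for Cxcl13. Marco (0.885 and 16.9), Siglec1 (0.817 and 19.5) and Timd4 (0.691 and 20.1) also lay on both sides of 1, with less than that fold in the untreated spleen. For Epor the level in C1q-zero cells was 182 CPM without and 10151 CPM with PHZ, and in C1q-high cells 2142 and 4506 CPM. The difference was not tested, since there was 1 section of each spleen.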

How the results depend on the processing

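With at least 5, at least 20, or at least 10 C1q counts over the nucleus alone, 26877, 3154 and 3267 cells were C1q-high, and 51.5%, 90.6% and 77.7% of them Spic-high. The Spic-high share was 67.5% with quality scores of 30 or more, 87.0% for at least 1 and 53.6% for at least 3 Spic counts. In CPM, 52 of 430 genes were higher and 182 lower than in C1q-zero cells, and per cell 117 and 32. With at least 1000 counts per gene 65 of 244 genes were lower. Against C1q-zero cells within 10 µm it was 106 of 316, and against those with at least 10 C1q-high cells around them 120 of 332. In the split by Spic, 31 of 280 genes were higher and 100 lower in the main setting. Without a minimum count 59 of 473 were higher and 205 lower, and with at least 1000 counts 34 of 168 were lower. Among cells with at least 20 C1q counts 58 of 220 were higher, and over the nucleus 60 of 172 were lower. In T cell-poor surroundings 14 of 255 were higher and 65 lower. These counts are thus out of different numbers of genes. The nearest C1q-high cell was at 6.21 µm and 11.5 µm for at least 5 and at least 20 C1q counts, with 28.0 and 23.2 T cell-marker and 13.8 and 17.7 erythroid-marker cells around. Within 30 µm the counts were 14.2 and 9.13, against 25.3 and 1.11 around C1q-zero cells, and with at least 5 marker counts 15.8 and 9.89, against 30.2 and 1.15. Siglec1 (4.13 and 4.75) and Timd4 (2.04 and 2.90) reversed against C1q-zero cells within 10 µm and against those with at least 10 C1q-high cells around them, and Marco moved to 1.33 and 1.86, and to 1.18 without erythroid counts. In T cell-poor surroundings Slc40a1 (1.45), Vcam1 (1.46), Cd5l (1.44) and Retn (0.738) no longer passed 1.5 times in the split, nor did 2610528A11Rik (0.502) pass 0.5 times against C1q-zero cells within 10 µm. Of 145 values of single genes, which did not include Slc40a1 and Vcam1 in the split, 135 kept their direction and their side of the fold. The local and T cell-poor references were chosen after seeing the data, and the causes of these shifts were not tested. No paired analysis was possible because each condition had 1 section. Low counts per cell limit statements on single cells, and outlines limit which cell a transcript is given to.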

Other observations

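Transcripts of different gene groups lay at different places in the outlines of both C1q-high and C1q-zero cells. Over the nucleus of C1q-high cells lay 71.2% of NK cell, 62.3% of T cell and 60.6% of neutrophil transcripts, against 51.5% of all transcripts outside C1q. Of C1q transcripts 44.3% lay there, of red pulp 48.4%, of erythroid 51.8%, of stromal 40.8% and of megakaryocyte and platelet transcripts 34.8%. In C1q-zero cells the share over all genes was 65.6%. It was 76.8% for NK cell, 72.5% for T cell, 69.1% for erythroid and 66.8% for neutrophil transcripts there. For red pulp it was 57.9%, for stromal 52.1% and for megakaryocyte and platelet transcripts 48.5%.

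Neutrophil genes went both ways between C1q-high and C1q-zero outlines, with 4 of 14 at least 2 times and 3 at most 0.5 times as high (median 0.994 in CPM, 1.94 per cell), against 12.1% and 42.3% of all genes (medians 0.599 and 1.17). Against C1q-zero cells within 10 µm, 2 were higher and 6 lower by these folds (median 0.647), near the 15.8% and 33.5% of all genes (median 0.656). The lower ones against all C1q-zero cells were Il1r2 at 0.356, Cxcr2 at 0.419 and Pglyrp1 at 0.420. Of the higher ones, 3 are granule genes of early neutrophils, chosen here after their values were seen. Elane had 408 against 93.9 CPM, a ratio of 4.35 (3.796 to 4.99), Mpo 3.37 and Fcnb 3.28. Against the C1q-zero cells within 10 µm these ratios were 3.40, 2.33 and 1.91. At least 3 transcripts of the neutrophil markers were found in 6.93% of C1q-high and 2.10% of C1q-zero cells, and the part of such cells in these ratios was not tested.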
